A study of Vulpes lagopus with 12 samples.

Results

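The membrane skeleton of the red blood cell was followed in blood RNA of the Arctic fox (Vulpes lagopus) through the genes SLC4A1, EPB42, ANK1, GYPC, EPB41 and SPTB. A probe set, the group of short probes that reads 1 transcript region, was taken for a gene where that gene's symbol was the only one in the array annotation. This gave 14 of 42924 tested probe sets, and 6 of 15115 genes. SLC4A1, EPB42 and GYPC had 1 probe set each, EPB41 had 2, ANK1 had 3 and SPTB had 6; where a gene had several they carry letters here (SPTB a to f), in the order of their names on the array, which the plots give in full. The arrays were Affymetrix Canine Genome 2.0 Arrays, which carry dog sequence, and each was hybridised with 1 RNA sample, labelled as blood. There were 11 fox arrays, numbered here in the order of the series, and 1 array titled as a canine control. The control array carries the same organism, source and tissue labels as the foxes, so the source of its RNA is known from the title alone. The design statement names polychlorinated biphenyls and mercury as the contaminants looked for in fox blood cells. No label gives the exposure, age, sex or genotype of a fox, so the foxes formed 1 group. Nor do the labels state that the samples came from separate animals. The p-values set the 1 control array against the spread between these fox samples only, and hold no spread of the control. Values are on a log2 scale, on which a difference of 1 is a doubling. Levels are compared between arrays; a level is not ranked against that of another probe set, and where a difference between 2 probe sets is printed only its change between arrays is described.

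The shape of a red cell rests on a protein net under its membrane. Long spectrin tetramers are tied to the membrane at ankyrin bridges that hold the anion exchanger of SLC4A1 (band 3), and at junctions that hold short actin filaments and glycophorin C. Inherited defects of these proteins in mammals give fragile round or elliptical red cells. Mature red cells of mammals have no nucleus, so red cell RNA in blood is mostly that of young red cells. ANK1, EPB41 and SPTB are also transcribed in other tissues such as muscle and brain. In whole blood, fewer young red cells and less RNA per cell cannot be told apart.

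Several arrays stood apart on array controls or marker genes. The 3′ minus middle difference of GAPDH, a control for RNA integrity and labelling, lay between 2.56 and 3.19 in foxes 1 to 8, between 0.42 and 1.08 in the remaining foxes 9, 10 and 11, and at −0.08 on the control. The same difference for actin was 2.14 to 5.21, 0.16 to 0.26 and 2.54, so by actin the control lay among foxes 1 to 8. Fox 2 had the highest value of all foxes on 9 of 9 probe sets for hybridisation spikes, with the middle of bioB at 12.42 against 9.10 to 10.56 in the other foxes. Medians over all tested probe sets were 7.06 to 7.17 in foxes and 6.85 on the control. The mean level of 6 liver marker genes was 13.66 on the control and 6.39 to 6.71 in foxes. That of 14 measured erythroid markers was 8.08 on the control and 8.50 to 9.84 in foxes, highest in fox 2. Mean levels of 6 neutrophil and 8 platelet markers were 9.41 to 11.67 and 7.60 to 8.93 in foxes, against 6.67 and 6.41 on the control. Those of T cell, B cell and monocyte markers were 7.84 to 9.11, 6.47 to 6.91 and 9.52 to 11.10 in foxes, and 8.23, 5.85 and 9.63 on the control. Globin genes and AHSP had no probe set with that symbol alone.

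At the ankyrin bridge, SLC4A1 and EPB42 lay above the control in every fox. SLC4A1, which exchanges chloride for bicarbonate and anchors the skeleton, had its lowest fox value at 7.37 (fox 1), its median at 7.52 and its highest at 7.74 (fox 4), and stood at 6.80 on the control. Its fox mean was 7.51 ± 0.12 (SD, n = 11). All 11 foxes lay above the control, and foxes 9, 10 and 11 lay among the others. EPB42, which stabilises the contact of band 3 with ankyrin, ran from 7.10 (fox 1) through a median of 7.53 to 7.98 (fox 2), with the control at 6.51. Its fox mean was 7.59 ± 0.25 (SD, n = 11), and again every fox lay above the control.

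ANK1, the ankyrin that joins spectrin to band 3, was read by 3 probe sets with different orders of foxes. ANK1 b, by which the gene is read in counts of genes, ran only from 8.18 (fox 11) through 8.30 to 8.45 (fox 6) and stood at 7.55 on the control. ANK1 c ran from 5.80 (fox 10) through 6.09 to 6.76 (fox 1), with the control at 4.80. In both, the control lay below all foxes. ANK1 a ran from 6.50 (fox 3) through 7.02 to 7.35 (fox 11) and stood at 8.53 on the control, above all foxes. It was the only member probe set with a control value above the foxes. ANK1 also gives a short muscle form that anchors the sarcoplasmic reticulum, and which form each probe set reads is not given in the annotation.

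At the junctions, EPB41 had a wider range over foxes than GYPC. GYPC, glycophorin C, is the membrane protein that holds the junction, and it ran from 8.45 (fox 3) through 8.92 to 9.60 (fox 2), with the control at 7.46. Its fox mean was 8.89 ± 0.32 (SD, n = 11), and all foxes lay above the control. EPB41, which strengthens the bond of spectrin to actin, had the widest range of any member. EPB41 b ran from 8.18 (fox 1) through 10.39 to 11.68 (fox 9), an 11.3-fold range, and stood at 8.03 on the control. Foxes 1, 3 and 6 were low at 8.18, 8.96 and 8.85, and foxes 9, 10 and 11 were the 3 highest at 11.68, 11.22 and 10.85. EPB41 a ran from 7.94 (fox 6) through 8.46 to 9.39 (fox 9), a 2.74-fold range, with the control at 7.72. There fox 11 (8.74) lay below fox 7 (8.81), so the groups of foxes overlapped.

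SPTB, the beta chain of spectrin, was read by 6 probe sets, and 2 of them ran in opposite directions over the foxes. SPTB f ran from 9.81 (fox 1) through 10.39 to 10.88 (fox 2), and stood at 9.28 on the control. SPTB d was highest in fox 1 (9.36) and fox 3 (9.31), had a median of 8.29, and was lowest in fox 9 (7.46), with the control at 6.94. Among foxes 1 to 8 it was lowest in fox 2 (7.93), the fox in which SPTB f was highest. Foxes 9, 10 and 11 (7.46 to 7.58) lay below all of foxes 1 to 8 in SPTB d, but among them in SPTB f.

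In the other 4 SPTB probe sets foxes spanned less than 1. SPTB b ran from 7.30 (fox 10) through 7.49 to 7.98 (fox 2), with the control at 6.72. SPTB c ran from 5.66 (fox 8) through 5.82 to 6.58 (fox 2), with the control at 5.13. Fox 2 was the highest fox in both. SPTB e ran from 5.40 (fox 11) through 5.86 to 6.31 (fox 6), and SPTB a from 5.08 (fox 10) through 5.26 to 5.41 (fox 5); the control stood at 5.13 and 4.67. In SPTB e, foxes 9, 10 and 11 (5.40 to 5.65) lay below all of foxes 1 to 8 (5.80 to 6.31). The table gave no detection call, and SPTB a, whose fox mean lay at percentile 12.6 of all tested probe sets, has an unknown distance from background.

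**Figure D1:**
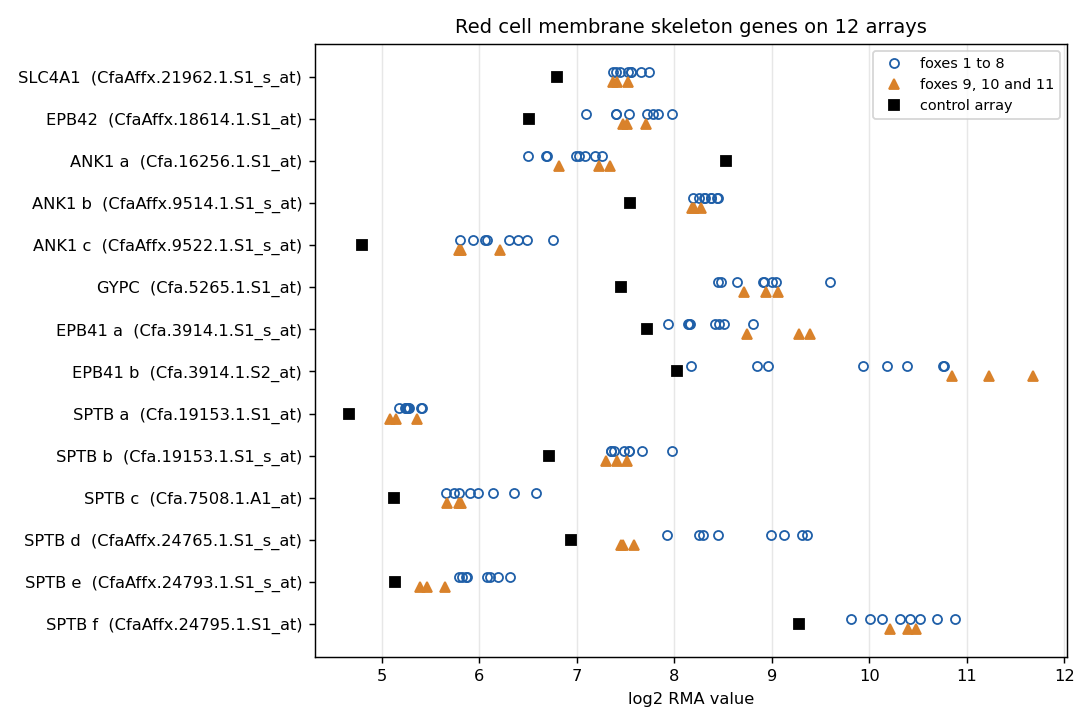
Log2 RMA values (x axis) of the 14 member probe sets (rows) on each array: open circles are foxes 1 to 8, triangles foxes 9, 10 and 11, squares the control array. The control lies left of all foxes in every row but ANK1 a, where it stands at 8.53 against at most 7.35, and EPB41 b has the widest spread of foxes.

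The control array against the foxes asks how far the canine control RNA departed from fox blood in these genes. Skeleton genes were lower on the control: limma with Benjamini-Hochberg adjustment over all probe sets called 10 of 14 member probe sets lower, 1 higher and 3 not. Over all probe sets 61% were called, 42.1% lower and 18.9% higher. The control lay below all 11 foxes for 13 member probe sets and above them for 1, against 55.1% and 21.9% of all probe sets. The median difference was −0.82 over the member probe sets and −0.46 over all tested. With each gene read by its brightest probe set, 5 of 6 member genes were lower and EPB41 was not called, beside 44.6% of all genes lower and 18.5% higher.

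Of the genes with 1 probe set, GYPC differed most. GYPC differed by −1.43 (SE 0.31), a 2.69-fold lower value, with an adjusted p of 0.0024 by limma. EPB42 differed by −1.08 (SE 0.25, adjusted p 0.0033 by limma), and SLC4A1 by −0.70 (SE 0.15, adjusted p 0.0017 by limma). All 3 calls held in every refit, with other scalings, other limma settings or foxes left out; a minimum difference of 1 leaves out SLC4A1. Both rescalings of the arrays brought SLC4A1 nearer to 0, to −0.43 with arrays centred on their medians and −0.44 after quantile normalization again (adjusted p by limma 0.0215 and 0.0240).

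ANK1 was called in opposite directions by its probe sets. ANK1 c differed by −1.36 (SE 0.31) and ANK1 b by −0.76 (SE 0.13), while ANK1 a differed by 1.55 (SE 0.27). The adjusted p by limma was 0.0030, 0.00045 and 0.00062. Within arrays, ANK1 a minus ANK1 b was −1.76 to −0.83 in foxes and 0.98 on the control. Averaged over its 3 probe sets, ANK1 differed by −0.19 and was not called (adjusted p by limma 0.268). With arrays centred on their medians ANK1 b differed by −0.49 and was still called (adjusted p by limma 0.0063).

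Some muscle genes were also high on the control array. Of 9 measured skeletal muscle markers the control lay above all foxes in 5 and below them in 2. Of all 15115 genes it lay above in 3287 and below in 8487. MYH2, a fast myosin, stood at 14.31 against at most 5.62 in foxes, and the skeletal actin ACTA1 at 12.86 against at most 8.68. Those below were MYH1 (−0.58) and TNNT1 (−0.89). The mean level of the 9 markers was 9.47 on the control and 6.89 to 7.32 in foxes. Of 5 measured brain markers the control lay above all foxes in 2, among them SNAP25 at 10.31 against at most 4.83. It lay below them in 2, GFAP (−1.10) and MBP (−0.93). The part of these tissues in the ANK1 values was not tested.

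SPTB was lower on the control in all 6 probe sets, and limma called 5 of them. SPTB f differed by −1.07 (SE 0.30, adjusted p 0.0093 by limma), and by −1.68 after quantile normalization again (adjusted p by limma 0.0049). SPTB b differed by −0.79 (adjusted p by limma 0.0058) and SPTB a by −0.60 (adjusted p by limma 0.0026); with arrays centred on their medians these were −0.52 and −0.33, both still called (adjusted p by limma 0.0355 and 0.0472). SPTB c (−0.82, adjusted p by limma 0.0287) and SPTB e (−0.74, adjusted p by limma 0.0422) lost their calls under both rescalings. SPTB e was also not called without any 1 of foxes 1, 3, 4, 5, 7 and 8, at adjusted p-values by limma of 0.0526 to 0.0555. SPTB d differed by −1.44 (SE 0.69, adjusted p 0.0861 by limma), and was called without foxes 9, 10 and 11 (−1.77, adjusted p by limma 0.0087).

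EPB41 had the largest difference of any member and was not called. EPB41 b differed by −2.13 with a 95% interval from −4.36 to 0.10 (adjusted p by limma 0.0881). The foxes themselves spanned 3.50 in this probe set, and fox 1 lay 0.15 above the control. Without fox 1 the difference was −2.33 and it was called (adjusted p by limma 0.0352). EPB41 a differed by −0.82, with an interval from −1.81 to 0.16 (adjusted p by limma 0.130).

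**Figure D2:**
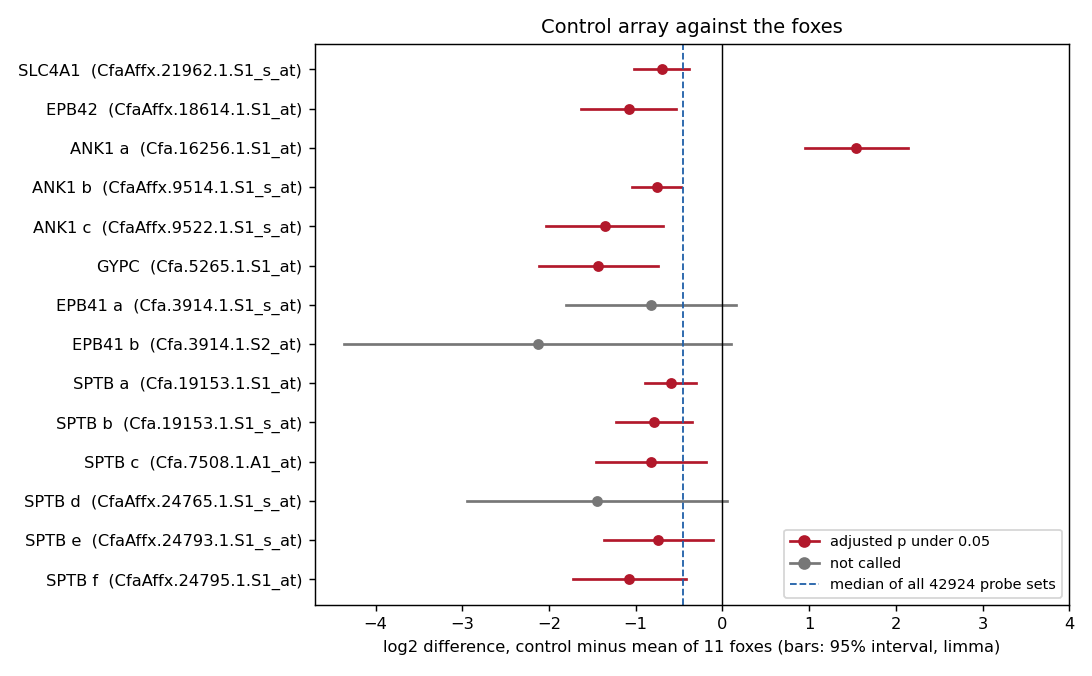
Log2 difference of the control array from the mean of 11 foxes (x axis) for each member probe set (rows), with 95% intervals by limma; red marks an adjusted p under 0.05, grey no call, and the dashed line the median of all tested probe sets at −0.46. Of the 14 points, 13 lie left of that line, from −2.13 to −0.60, and ANK1 a lies at 1.55.

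Most member probe sets had an SD under 0.5 between foxes. Over the 11 foxes 2 of 14 member probe sets, and 14.8% of all tested, had an SD of 0.5 or more, so the share of members was near that of all. These were EPB41 b (SD 1.09, percentile 97.8 of all probe sets) and SPTB d (SD 0.73, percentile 92.4). Both kept an SD of at least 0.5 within foxes 1 to 8, at 0.97 and 0.55, beside 7% of all probe sets. At the other end, ANK1 b (SD 0.10) and SLC4A1 (SD 0.12) lay at percentiles 2.61 and 8.50; after quantile normalization again the SD of ANK1 b was 0.17. Just under the threshold was EPB41 a (SD 0.47, and 0.28 within foxes 1 to 8). Further below came GYPC and ANK1 c (SD 0.32 each) and SPTB f (SD 0.30).

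Foxes 9, 10 and 11 separated from foxes 1 to 8 in 3 member probe sets. They lay above in EPB41 b and below in SPTB d and SPTB e; 12.6% of all probe sets lay above in this way and 14.6% below. The other 11 overlapped. In SLC4A1, EPB42 and GYPC these foxes lay at 7.37 to 7.53, 7.48 to 7.71 and 8.72 to 9.06, inside the range of the others. GAPDH set the same foxes apart, and the part of RNA quality in their values was not tested.

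Fox 2 was the highest fox in 5 of 14 member probe sets: GYPC, EPB42, SPTB b, SPTB c and SPTB f. Fox 2 was the highest in 20.9% of all probe sets, and it was the fox with the highest hybridisation spikes. Fox 1 was the lowest in 4 member probe sets, those of SLC4A1, EPB42, EPB41 b and SPTB f, against 12.3% of all. In SPTB d and ANK1 c the same fox was the highest, against 9% of all. The part of hybridisation strength in these orders was not tested.

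**Figure D3:**
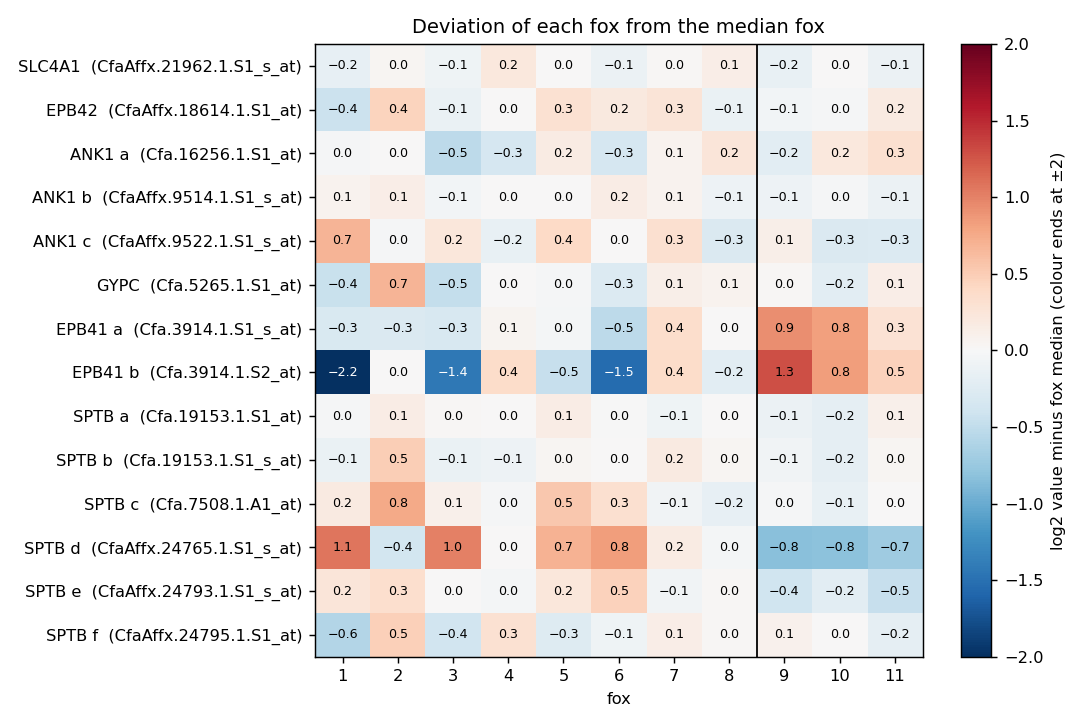
Deviation of each fox (columns 1 to 11, the line dividing foxes 1 to 8 from 9, 10 and 11) from the median fox for each member probe set (rows), in log2 units as printed in the cells; red is above and blue below the median, and the colour scale ends at 2 on either side. Fox 2 is above the median in GYPC and EPB42, and EPB41 b and SPTB d show opposite colours in foxes 1, 3, 5 and 6 and in foxes 9, 10 and 11.

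Correlations over foxes are given as descriptions. They share arrays, normalization and array-wide differences, and because foxes 9, 10 and 11 formed a cluster of their own they were computed within foxes 1 to 8 (n = 8). Between the 6 genes, each by its brightest probe set, 13 of 15 pairs had a positive Pearson r, with a median of 0.59. Placed among the r of the first gene with all genes, the 15 pairs lay between percentiles 18.0 and 98.6. Over all 11 foxes the median r was 0.36, and 0.20 with each gene as the mean of its probe sets. The same numbers over all pairs of genes are not given, so the count and medians have no background here. Within foxes 1 to 8 the highest were SLC4A1 with EPB41 (r = 0.87, rho = 0.83), GYPC with SPTB (r = 0.86, rho = 0.88) and EPB41 with SPTB (r = 0.83, rho = 0.83). Leaving out the 2 foxes farthest from the median of the first gene gave r of 0.80, 0.75 and 0.80. Over all 11 foxes these pairs had r of 0.31, 0.79 and 0.66. Their full r within foxes 1 to 8 stood above those of 98.6% of genes with SLC4A1, 94.4% with GYPC and 96.9% with EPB41. SLC4A1 with EPB42 had an r of 0.22, above that of 55.9% of genes with SLC4A1. EPB42 had an r of 0.72 (rho = 0.69) with GYPC, and 0.57 to 0.81 when each of the 8 foxes was left out in turn. Without the 2 foxes farthest from the EPB42 median it was 0.32, over fewer foxes and a narrower range of EPB42. Both negative pairs held ANK1, with SLC4A1 (r = −0.40) and with EPB41 (r = −0.13).

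The 19 pairs of probe sets within a gene had a median r of 0.22, and 6 of them were negative. The 2 EPB41 probe sets had an r of 0.76 (rho = 0.86), and 0.69 without the 2 farthest foxes. SPTB d and SPTB f had an r of −0.93 (rho = −0.90), which ran from −0.96 to −0.89 when each of the 8 foxes was left out in turn. Their difference within arrays, SPTB d minus SPTB f, lay between −2.94 and −0.45 among foxes 1 to 8 and between −3.02 and −2.63 in the other foxes. Both also followed the spread (SD) of an array's values, with r of −0.87 and 0.81 over foxes 1 to 8. The part of array-wide spread in their opposition was not tested.

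ALAS2, the haem synthesis enzyme of young red cells, is the erythroid marker with the largest SD among foxes in the list used here. Among foxes 1 to 8 fox 1 was lowest at 10.89 and fox 2 highest at 14.95, and foxes 9, 10 and 11 lay between 13.74 and 15.05. Within foxes 1 to 8 GYPC followed it with an r of 0.97 (rho = 0.95), and 0.96 without the 2 foxes farthest from the ALAS2 median. EPB41 b had an r of 0.86 (0.71 without those foxes), SPTB f 0.85 (0.66) and SPTB b 0.84 (0.79). EPB42 (0.71) and SLC4A1 (0.66) fell to 0.35 and 0.38. SPTB d ran against ALAS2, with an r of −0.93 (−0.85). ANK1 a, b and c had r of 0.56, 0.10 and −0.47 with ALAS2. SPTB a, c and e had r of 0.38, 0.26 and −0.10, and EPB41 a of 0.50. No other erythroid marker of the list was set against all members, so these r describe ALAS2 alone. The r are given for foxes 1 to 8 only, not over all 11. With ALAS2 at 13.74 to 15.05, foxes 9, 10 and 11 lay at 8.72 to 9.06 in GYPC, inside the range of foxes 1 to 8. In EPB41 b foxes 9, 10 and 11 were the highest, at 10.85 to 11.68. The array SD had an r of 0.65 with ALAS2, 0.62 with GYPC, 0.73 with EPB41 b and 0.85 with SLC4A1, the last above the r of SLC4A1 with ALAS2. The part of array-wide spread in these relations was not tested.

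**Figure D4:**
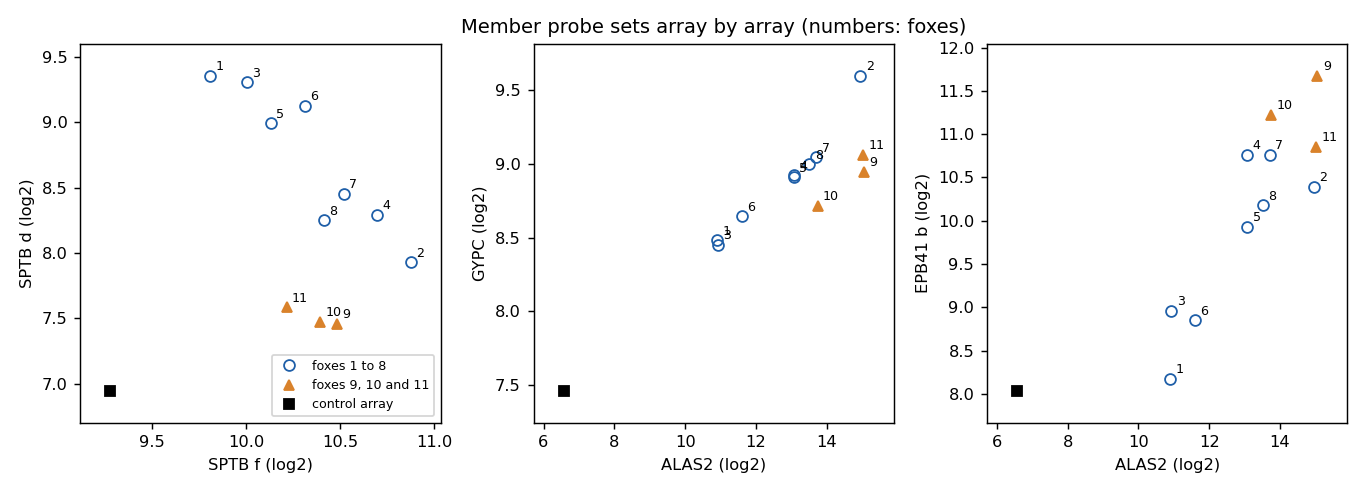
Log2 values array by array, with fox numbers at the points: SPTB d against SPTB f (left), GYPC against ALAS2 (middle) and EPB41 b against ALAS2 (right). Among foxes 1 to 8 (circles) the left points fall (r = −0.93) and the others rise (r = 0.97 and 0.86); triangles are foxes 9, 10 and 11 and the square is the control.

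**Figure D5:**
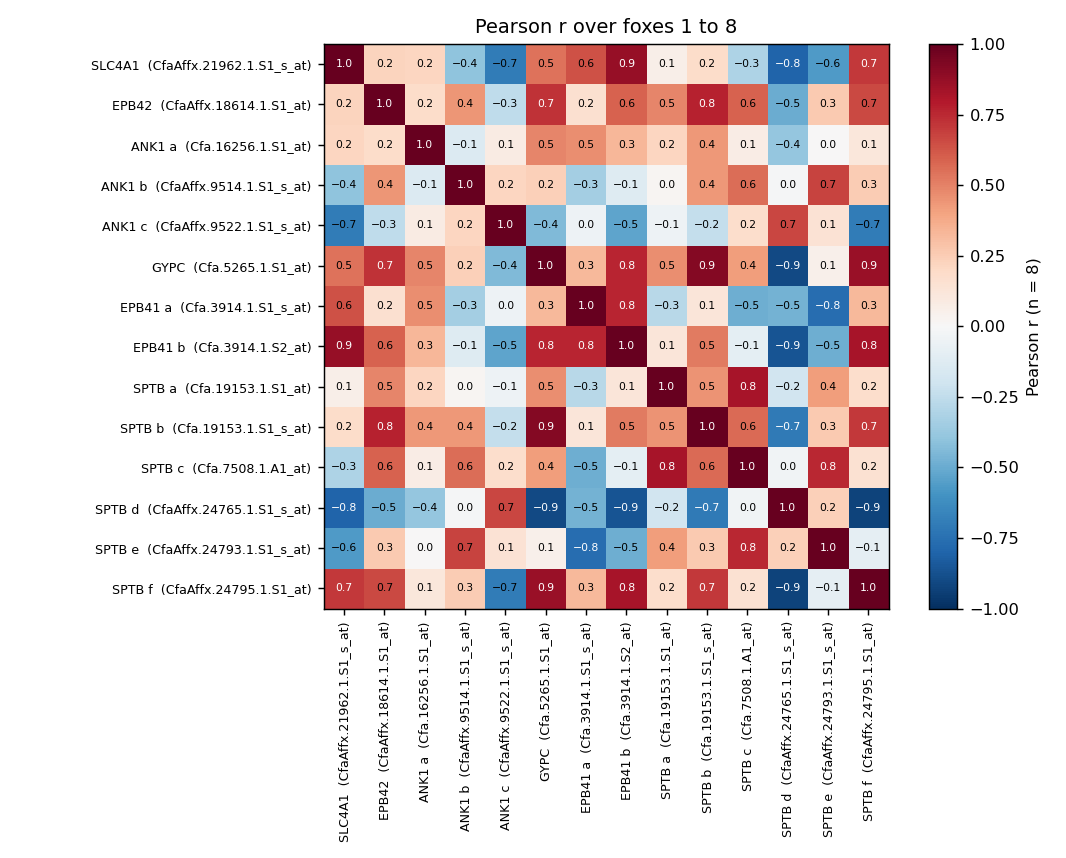
Pearson r over foxes 1 to 8 between all member probe sets, red positive and blue negative, to 1 decimal in each cell. SPTB d is blue against GYPC, EPB41 b and SPTB f, with r of −0.90, −0.86 and −0.93.

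The genes most like each member over foxes 1 to 8 were of mixed kinds. With 8 arrays and 15115 genes high values are common: 3.34% of all genes had an r of at least 0.9 with GYPC, 1.46% with SPTB, 0.734% with EPB41, 0.529% with SLC4A1, 0.311% with EPB42 and 0.0728% with ANK1. Nearest to GYPC were PSMD3, a proteasome subunit, BLVRB, a biliverdin reductase abundant in red cells, and RFX4, at r of 0.99 each. Over all 11 foxes these were 0.86, 0.84 and 0.99. Nearest to SPTB were GSDMD (0.99), the pore-forming gasdermin, MON1A (0.98) and KLHL8 (0.98). For EPB41 they were CATSPER3 (0.99), the mitochondrial ubiquitin ligase MUL1 (0.97) and ZNF768 (0.97). For SLC4A1 they were AMZ2 (0.97), ARGLU1 (0.96) and ANAPC4 (0.96), a subunit of the anaphase-promoting complex. For EPB42 they were SERPINA12, NEMF and PMM2 (0.96 each), and for ANK1 SYT11 (0.97), KLHDC9 (0.94) and ENPP7 (0.94). Several of these were far lower over all 11 foxes: AMZ2 (0.33) and ANAPC4 (0.32) with SLC4A1, CATSPER3 (0.51) with EPB41 and KLHDC9 (0.61) with ANK1.

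A list of 40 further genes of the red cell membrane was set beside the members. Of 35 measured, limma called 14 lower, 6 higher and 15 not, shares near those of all genes (44.6% lower and 18.5% higher). The median difference was −0.55 beside −0.53 over all genes. With arrays centred on their medians 7 were lower and 7 higher, beside 44.9% of all probe sets called in either direction. Without that centring 61.0% of all probe sets were called. Of 11 skeleton and junction genes 3 were lower: DMTN (−1.19), which bundles actin, ADD2 (−0.98), the adducin that caps it, and ACTB (−0.60). TPM1 (3.69) and TMOD1 (2.05), a tropomyosin and a tropomodulin that muscle also makes, were higher. The largest positive differences besides TPM1 were those of the complement inhibitor CD59 (5.71) and the transporter ABCG2 (4.78). The most negative were CD44 (−1.76), an adhesion receptor, and the raft proteins FLOT1 (−1.26) and FLOT2 (−1.25), of which limma called CD44 alone (adjusted p 0.0127). In the band 3 and Rh group RHAG (−1.08) and RHCE (−0.86, by 1 of its 3 probe sets) were lower. CD47 (1.12) and CA2 (0.44, by 1 of its 3 probe sets) were not called. The other probe sets of CA2 differed by 6.86 and 1.01.

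Among foxes, 13 of these 35 genes had an SD of 0.5 or more, beside 18.3% of all genes. The widest was STOM, stomatin of the membrane, at 6.03 to 9.31 among foxes 1 to 8 and 10.82 to 11.26 in the remaining foxes (SD 1.84). TPM3 (SD 1.49) and MPP1 (SD 1.28), the latter a partner of GYPC and EPB41 at the junction, also lay higher in foxes 9, 10 and 11 than in all others. The adducin ADD3 (SD 0.98) overlapped. The most even were the glucose transporter SLC2A1 (SD 0.07), ABCB6 (SD 0.13), ACTB (SD 0.13) and BCAM (SD 0.14). In all, foxes 9, 10 and 11 lay above the others in 10 of the 35 genes and below in 4, against 14.2% and 14.6% of all genes.

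Paralogs of the members that serve other tissues were described in the same way. Of 13 measured, limma called 4 lower and the other 9 in neither direction, beside 44.6% of all genes lower and 18.5% higher, with a median of −0.46. Those called were SLC4A2 (−0.67) and SLC4A3 (−0.46), anion exchangers of other cells, EPB41L2 (−1.36) and EPB41L4B (−1.20). SPTBN1, the beta spectrin of most other cells, differed by 1.72 and was not called (adjusted p by limma 0.0855). EPB41L3 (−1.28), EPB41L1 (−1.27), ANK3 (−0.54), SPTBN4 (−0.39), ANK2 (−0.36), TGM2 (−0.26), EPB41L5 (−0.01) and SPTAN1 (0.28) were not called either. SDs over foxes lay between 0.12 for SLC4A2 and 0.87 for SPTBN1. Foxes 9, 10 and 11 lay below the others in 5 of the 13, beside 14.6% of all genes, and above in none. By the names of the probe sets, 7 of the 14 members end in _s_at, which Affymetrix uses for probes shared by several transcripts, so a share of paralog signal cannot be told apart in them.

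Of 14 erythroid markers measured limma called 8 lower and 1 higher, beside 44.6% and 18.5% of all genes, with a median of −1.002. ALAS2 differed by −6.66, the mitophagy receptor BNIP3L by −3.47 and the iron carrier SLC25A37 by −2.33, while HEMGN, a nuclear protein of red cell precursors, differed by 3.32. The erythroid regulators GATA1 (−1.06) and KLF1 (−1.03) were lower, beside a median of −1.08 over the 6 member genes. Lower skeleton values on the control stood beside an erythroid list in which 10 of 14 differences were negative. Of all 15115 genes 10334 had a negative difference, so the erythroid share was near that of all. Besides HEMGN, the erythroid markers BLVRB (0.62), FECH (0.58) and DCAF12 (0.02) had positive differences. Medians were −4.17 for neutrophil, −1.61 for platelet, −0.78 for monocyte, −0.70 for B cell and −0.30 for T cell markers, beside −0.53 over all genes. The part of these cell types in the members' differences was not tested.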

How the data were processed

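RNA of 11 Arctic fox samples and 1 canine control, all labelled as blood, was read on Affymetrix Canine Genome 2.0 Arrays. Per the submitters' processing notes, the authors used Expression Console and RMA (background correction, quantile normalization and summary of probes) for the deposited log2 values; no source used here gives versions or says whether all 12 arrays went in together. Of 43035 probe sets, none with a missing value, 111 array controls were used for quality only. Genes were named from the platform annotation: 29254 tested probe sets had 1 symbol, 439 several and 13231 none. A gene was read by its probe set of highest mean over the 12 arrays. No positions are given, since probes target dog sequence.

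The control was compared with the foxes by limma 3.58.1 in R 4.3.3 (lmFit, eBayes), fitted over 42924 probe sets with Benjamini-Hochberg adjustment and a threshold of 0.05, after a test on simulated data. The lone control array is assumed to vary like a fox. The number of arrays limits the precision. SDs and correlations over foxes are descriptions with no p. Members and lists were chosen with earlier results of these data known. All member probe sets are named. Of the further membrane genes, those named have the 4 largest or smallest SDs or the 3 most positive or negative control differences, or were chosen after their values were seen (the rest of the skeleton and band 3 groups, the paralogs and the markers). Likeness was Pearson r within foxes 1 to 8, the 3 highest per member. Alternatives were a second quantile normalization, arrays centred on medians, trend and robust options of limma, brighter probe sets only, a minimum difference of 1, position outside the foxes' range, the mean of a gene's probe sets, other measures of spread or correlation, and leaving out each fox or foxes 9, 10 and 11.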

Additional observations from a re-analysis of the deposited data

How the results depend on the processing

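Counts of calls on the control array changed by more than 1.5 times in few settings. With a log2 difference of at least 1 required, 5 of 14 member probe sets (4 lower, 1 higher), 3 of 6 member genes and 11 of 35 further membrane genes were called, beside 27.5% of all probe sets. When only the brighter part of all probe sets was tested, 6 member probe sets were called, of the 9 that remained, beside 59.6% of all. Leaving out each fox gave 10 to 11 member probe sets, 5 to 6 member genes and 19 to 21 further genes, beside 58.2% to 64.3% of all probe sets. Without foxes 9, 10 and 11 the counts were 12, 5 and 23, beside 72.0% of all probe sets. No member difference changed sign in any setting of the fit. An SD of 1 or more was found in 1 member probe set, and the count at 0.5 stayed at 2 with each fox left out. The median r between member genes was 0.59 without foxes 9, 10 and 11 and 0.30 to 0.49 with each fox left out; over all 11 it was 0.20 with the mean of a gene's probe sets and 0.27 after a second quantile normalization, against 0.36. No paired analysis was possible because the control is 1 array and replicate numbers follow the order of the series. Signal over background could not be set, for lack of detection calls.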

Other observations

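The blood group gene RHCE, an Rh protein that sits with band 3 in the red cell membrane, was read by 3 probe sets, here a, b and c, which differed in their spread among foxes. These were chosen after their values were seen. RHCE a was lowest in fox 10 (5.93) and highest in fox 2 (10.97), with an SD of 1.57 (n = 11). RHCE b ran from 5.94 to 8.97 (SD 1.03), while RHCE c ran only from 7.72 to 8.63 (SD 0.26). Within foxes 1 to 8 the first had an r of 0.89 with GYPC and of 0.86 with ALAS2, and the last of −0.28 and −0.32 (n = 8, as descriptions). On the control RHCE a differed from the foxes by −2.57 and RHCE b by −1.56, neither called (adjusted p by limma 0.145 and 0.179). Fox 7 (9.67), fox 5 (8.81) and fox 4 (8.73) followed fox 2 in RHCE a.

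CA2, a carbonic anhydrase that red cells and many epithelia make, was also read differently by its probe sets, again chosen after their values were seen. CA2 b lay between 4.07 and 4.40 in all 11 foxes and at 11.10 on the control, a difference of 6.86 (adjusted p by limma 7.5e-13), while CA2 a differed by 0.44 and was not called (adjusted p by limma 0.0852). CA2 c differed by 1.01 (adjusted p by limma 0.00059).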
